A study of Mus musculus with 18 samples.

Results

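The 5 posterior HoxA genes Hoxa7, Hoxa9, Hoxa10, Hoxa11 and Hoxa13 were followed in fibroblasts, in the cells converted from fibroblasts, and in organoids of native intestine. They are 5 of 19701 genes named on the arrays and are read by 6 probes, found by their gene name in the array files. The genes were chosen on these same arrays, because their levels in the converted organoids were near those of fibroblasts and above those of native organoids. All levels against fibroblasts, and all differences between induced and native organoids, are therefore given as a description with no test. Tests of these genes are given only between the 2 kinds of induced organoid and between the 2 kinds of native organoid. These differences were not the ground of the choice. The choice did use the levels of these groups, so few calls in these tests may follow from it in part.

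Hox genes encode homeodomain transcription factors that give cells along the body axis their regional identity. In each cluster the genes lie in the order in which they are used along the body, so that the genes at one end mark anterior regions and those at the other end mark posterior regions, the distal limb and the hindgut. Fibroblasts in culture keep the Hox code of the body region they came from. In the gut, Hox genes are used most strongly by the mesenchyme, and Hoxa13 is also used by the endoderm of the hindgut.

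There were 18 arrays of C57BL/6 mouse cells in 6 groups of 3. MEF are mouse embryonic fibroblasts, and iHep are hepatocyte-like cells induced from MEF; the iHep arrays carry the codes 4α1, 4α2 and 4α3, which the labels do not explain, and may be separate kinds of conversion. iISC stands for induced intestinal stem cells, which gave budding organoids, and crypt organoids are budding organoids from adult intestinal crypts. iFIPC organoids are spherical and budding organoids from induced fetal intestinal progenitor cells, and FI organoids are the same forms grown from native fetal intestinal progenitors. The labels do not name the conversion factors; from the published study they are known to include Hnf4a, Foxa3, Gata6 and Cdx2, delivered as transgenes. The labels do not say whether arrays of a group came from separate cultures or animals, so p-values measure the spread between these arrays, which may be technical.

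Levels are log2 signals of the array's single colour after subtraction of that array's 75th percentile over gene probes, so 0 is the level of that percentile and a step of 1 is a 2-fold change. That percentile lay between 712.6 and 1476 signal units, 56.12% to 68.65% of gene probes were well above background, and at most 3 were saturated. By a median-based spread of log2 differences, MEF 2 and MEF 3 differed by less than the median noise of repeated spots (0.073 against 0.0906); the plain SD of the same differences, which single probes far off raise, was 0.2122. They were counted as 1 sample, so MEF has n = 2 in means and SDs. Scanner and extraction software differed between the organoid arrays and those of MEF and iHep, and the 7 spike-in RNAs of the latter read 0.519 to 1.2 higher than on organoid arrays. Cell group and scanner cannot be told apart between these sets. In bulk RNA, fewer cells of a type and less RNA per cell cannot be told apart.

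The organoids carried the defining markers of epithelium: all 10 epithelial markers, among them Epcam and Cdh1, were well above background on every organoid array, and 4 of 10 on the MEF arrays. All 10 were also well above background on every iHep array. Cdx2, itself a conversion factor, is among the 10. The 15 fibroblast markers were all well above background on the MEF arrays.

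The 5 genes lie in a row on mouse chromosome 6, all on the minus strand. In the mm9 build named in the organoid files, the Hoxa7 probe is at chr6:52165626-52165685, the Hoxa9 probe at chr6:52174269-52174328, the Hoxa10 probe at chr6:52181656-52181715 and the Hoxa11 probe at chr6:52192107-52192166. The 2 Hoxa13 probes are at chr6:52208856-52208915 and chr6:52209015-52209074.

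Stretches of 250 bases upstream of the RefSeq transcript start follow (GRCm38.p6, minus strand), those of Hoxa7, of the distal Hoxa10 start and of Hoxa11, as examples with 2, 1 and 0 matches to the caudal type motif. Capitals mark TTTATNN, the caudal type motif, and GGGCGG, the GC box, where a search of both strands found them; TATAAA and CCAAT were searched as well.
Hoxa7, chr6:52218574-52218823: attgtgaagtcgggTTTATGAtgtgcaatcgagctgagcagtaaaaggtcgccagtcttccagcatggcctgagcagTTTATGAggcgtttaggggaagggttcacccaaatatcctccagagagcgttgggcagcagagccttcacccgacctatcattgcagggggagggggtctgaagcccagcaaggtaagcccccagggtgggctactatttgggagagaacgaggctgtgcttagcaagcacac
Hoxa10, chr6:52240855-52241104: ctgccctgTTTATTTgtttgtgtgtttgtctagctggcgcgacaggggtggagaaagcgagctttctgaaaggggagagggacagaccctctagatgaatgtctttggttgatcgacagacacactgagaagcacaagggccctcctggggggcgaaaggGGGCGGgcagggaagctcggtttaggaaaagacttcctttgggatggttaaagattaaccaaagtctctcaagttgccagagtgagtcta
Hoxa11, chr6:52245811-52246060: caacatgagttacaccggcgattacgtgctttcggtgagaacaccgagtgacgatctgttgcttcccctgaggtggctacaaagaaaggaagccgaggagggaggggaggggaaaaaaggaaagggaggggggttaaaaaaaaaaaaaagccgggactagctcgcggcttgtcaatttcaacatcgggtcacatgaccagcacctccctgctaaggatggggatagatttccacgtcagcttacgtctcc
The Hoxa7 stretch held TTTATNN at 2 places, 236 and 173 bases before the start, and the distal Hoxa10 stretch held it once, 242 bases before the start. At the proximal Hoxa10 start TTTATNN lay 160 bases upstream and overlapped a TATAAA on the other strand. The Hoxa11 stretch held none of the 4 motifs. Over the 6 promoters of the 5 genes, 3 held TTTATNN, 1 held TATAAA, 2 held CCAAT and 3 held GGGCGG. The shares among all 32851 RefSeq promoters of this length were 37.1%, 12.4%, 33.8% and 32.7%, so the counts for the 5 genes lie near what all promoters show. The Hoxa13 stretch was 80.0% G and C, against a median of 52.4% over all promoters, and the other promoters of these genes ranged from 49.6% to 59.2%.

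Hoxa7, the most anterior of the 5 and a marker of the trunk, was near the fibroblast level in both induced organoids and lower in native ones. It read 2.72, 3.10 and 3.13 on the MEF arrays and 1.13, 2.26 and 2.68 in iHep. In iISC organoids it read 2.18, 3.42 and 2.68, and in iFIPC organoids 3.13, 2.42 and 2.98. Each induced group overlapped MEF except iHep, whose arrays all lay below the MEF arrays. MEF (2.92 ± 0.28, SD, n = 2), iFIPC (2.84 ± 0.38, n = 3) and iISC (2.76 ± 0.62, n = 3) did not differ beyond their spread. In native organoids it read -3.08, -1.27 and -0.51 in crypt arrays and -4.37, -0.89 and 0.13 in FI arrays, all below the lowest induced array but well above background. The spread among native arrays was wide, with crypt 1 and FI 1 the lowest of their groups. The iISC mean was 20.8-fold above crypt and the iFIPC mean 23.4-fold above FI.

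Hoxa9, which marks the thoracic to lumbar trunk and the proximal limb, had its highest levels in the induced organoids and not in fibroblasts. It read -0.54, -0.49 and -0.49 in MEF and -0.24, 0.33 and -1.0 in iHep. It read 0.93, 1.14 and 0.80 in iISC and 1.60, 1.44 and 1.88 in iFIPC organoids, and every induced organoid array was above every MEF and iHep array. Native arrays lay close together and below all others, at -2.58, -2.34 and -2.66 in crypt and -2.72, -2.99 and -2.98 in FI. The order of groups was iFIPC, iISC, iHep, MEF, crypt and FI, and of these neighbours only iHep and MEF overlapped. The iISC mean was 2.77-fold and the iFIPC mean 4.45-fold above MEF. Scanner and extraction software also differed between these array sets, and their part in the difference was not tested.

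Hoxa10, which patterns the lumbar axis and the reproductive tract, was far higher in induced than in native organoids. It read 0.54, 0.18 and 0.27 in MEF and 0.10, 0.68 and -0.19 in iHep. It read 1.90, 1.69 and 1.66 in iISC and 2.58, 2.15 and 2.49 in iFIPC organoids, again with all induced arrays above all MEF and iHep arrays. In crypt organoids only crypt 2, at -4.63, was well above background, and crypt 1 and 3 read -8.65 and -6.81. In FI organoids only FI 3, at -6.01, was well above background, and FI 1 and 2 read -8.78 and -8.76. The difference of means was 8.45 between iISC and crypt and 10.25 between iFIPC and FI. With normexp, another background correction, the differences were 5.24 and 6.26.

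Hoxa11, which patterns the middle segment of the limb and the kidney, was well above background on every MEF, iHep and induced organoid array and on no crypt array. It read 2.35, 1.64 and 1.59 in MEF, 0.66, 1.62 and 1.57 in iHep, 2.50, 1.71 and 2.40 in iISC, and 3.13, 2.73 and 3.05 in iFIPC. The iISC and MEF arrays overlapped, and the iFIPC arrays were above both. The crypt arrays read -9.02, -8.57 and -8.84, below the background limit, so iISC was at least 455-fold higher than crypt. FI 2 and FI 3, at -6.09 and -6.68, were well above background and FI 1, at -9.11, was not. The iFIPC mean was 10.26 log2 units above the FI mean. With normexp correction the iISC difference was 6.29 and the iFIPC difference 7.14.

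Hoxa13, the last gene of the cluster, marks the hindgut, the genital tubercle and the hand and foot. It was detected in fibroblasts and in all induced organoids but on no native array. The probe that stands for the gene read -3.90, -5.54 and -5.75 in MEF. Of the iHep arrays only iHep 3, at -5.37, was well above background, and the others read -6.15 and -7.89. It read -4.22, -5.43 and -2.77 in iISC organoids and -2.57, -2.85 and -2.62 in iFIPC organoids, all well above background. Crypt arrays read -7.90, -7.04 and -7.69 and FI arrays -8.81, -8.36 and -7.24. The iISC level was at least 5.61-fold above crypt and the iFIPC level at least 19.3-fold above FI. The second Hoxa13 probe gave at least 5.50-fold and 18.7-fold, and was well above background in 2 of 3 iHep arrays. The probes gave opposite signs for iISC against MEF, with differences of 0.63 and -0.34. Neighbouring groups overlapped throughout the order iFIPC, iISC, MEF, iHep, crypt and FI.

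**Figure D1:**
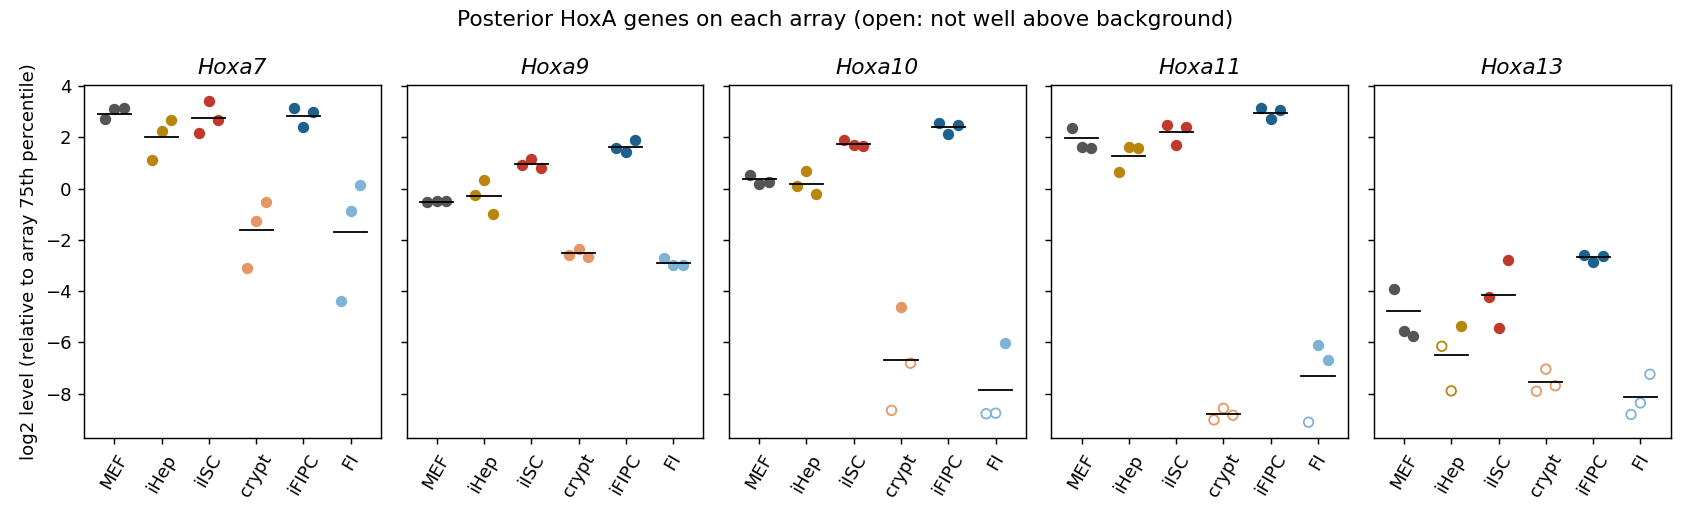
Log2 level (relative to each array's 75th percentile over gene probes) of the 5 genes on all 18 arrays, one panel per gene and one column per group, with a line at the group mean (MEF 2 and 3 counted as 1 sample). Open circles are not well above background; native crypt and FI arrays lie below all MEF and induced organoid arrays in every panel.

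In iISC against crypt organoids the groups did not overlap for 5 of 5 genes, where 25.5% of all genes tested did not overlap and 3.41% were called. In iFIPC against FI organoids they did not overlap for 5 of 5 genes, where 46.9% of all genes did not and 10.8% were called. The choice of the genes used these differences, so nothing is read from the counts. For the gene lists below, the shares of all genes tested at an unadjusted p under 0.05 in limma were 21.7% in iISC against crypt and 40.7% in iFIPC against FI. As measured, the median difference was 4.38 for iISC against crypt and 5.46 for iFIPC against FI. With genes that were not above background on any native array at their bound (Hoxa11 and Hoxa13 against crypt, Hoxa13 against FI) the medians were 4.38 and 4.55, beside medians of -0.007 and -0.076 over all genes tested. No array slide held both groups of either comparison, so a fit with slide as a term links them only through arrays of other slides. The linking array was iFIPC 2 for iISC against crypt, and crypt 1 for iFIPC against FI. Crypt 1 had the lowest Hoxa7 of the crypt arrays, -3.08. Differences with slide as a term, here and for the genes below, hang on these arrays and are no measure free of slide. With slide as a term in the fit, the iISC differences were 4.29 for Hoxa7, 3.75 for Hoxa9, 7.85 for Hoxa10, 11.27 for Hoxa11 and 3.48 for Hoxa13. The iFIPC differences were then 2.57, 4.55, 7.45, 10.07 and 5.0 in the same order, against 4.55, 4.53, 10.25, 10.26 and 5.46 without the term.

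The iHep cells, converted from fibroblasts toward liver, had levels of the first 4 genes within 1 log2 unit of MEF. The differences of iHep from MEF were -0.90 for Hoxa7, 0.21 for Hoxa9, -0.19 for Hoxa10 and -0.70 for Hoxa11, where FI and crypt organoids lay at least 2.01 log2 units below MEF for each. The Hoxa13 difference was -1.70 with 1 of 3 iHep arrays above background. Of the 15 fibroblast markers, 14 were above background on all 3 iHep arrays, and their part in these levels was not tested. Of all 14405 genes tested between iHep and MEF, 27.8% were called; the 5 genes are not tested there.

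Between the 2 induced organoids, the test with limma over 13770 genes called 0 of the 5 genes, against 8.05% of all genes called (adjusted p under 0.05 and a log2 difference of at least 1). At an unadjusted p under 0.05 there were 2, where 30.9% of all genes tested were. The choice drew on the levels of both groups, so nothing is read from these counts of the 5 genes. All 5 were lower in iISC than in iFIPC organoids, and the arrays did not overlap for 3 of them, Hoxa9, Hoxa10 and Hoxa11, where 38.3% of all genes tested did not overlap. Hoxa9 was lower in iISC by 0.68 ± 0.15 log2 units (SE), with an adjusted p of 0.017 (limma, Benjamini-Hochberg) and a 95% interval of -1.01 to -0.35. The size was under the required log2 difference of 1, so it was not called. On the 1 slide that holds both groups, the 3 iISC arrays and iFIPC 2, the Hoxa9 difference was -0.49; with 1 iFIPC array there, no p is drawn on. Without iISC 3 or without iFIPC 3 the adjusted p was 0.0577 and 0.0535.

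Hoxa13 differed by -1.46 ± 0.60 (adjusted p = 0.136 by limma, interval -2.81 to -0.10), and on the shared slide by -1.28. Without iISC 3, its highest iISC array, the difference was -2.14 with an adjusted p of 0.0329 by limma, which would be called. Hoxa11 differed by -0.77 ± 0.63 (adjusted p = 0.443, interval -2.17 to 0.64), and by -0.52 on the shared slide. Hoxa10 differed by -0.65 ± 0.96 (adjusted p = 0.692, interval -2.79 to 1.48), and by -0.40 on the shared slide. Its SD was 0.13 in iISC and 0.23 in iFIPC, but 2.01 in crypt and 1.60 in FI organoids, and the fit shares 1 error over all 4 groups. With normexp the adjusted p was 0.0558 for Hoxa10 and 0.0273 for Hoxa11 in limma, with sizes still under 1. Hoxa7 differed by -0.08 ± 1.04 (adjusted p = 0.969, interval -2.40 to 2.23), and by 0.34 on the shared slide. These intervals do not show equal levels, since for Hoxa7 and Hoxa10 they span more than a 2-fold change each way.

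Between the native organoids 2 of the 5 genes were bright enough to test, and 0 were called, where 9.15% of 14180 genes were called. At an unadjusted p under 0.05 there was 1, Hoxa9, where 32.9% of all genes tested were. It was 0.37 ± 0.15 higher in crypt than in FI organoids (adjusted p = 0.119 by limma, interval 0.04 to 0.70), with no overlap of arrays, and 0.32 higher on the slide that holds crypt 1 and the FI arrays. Hoxa7 differed by 0.09 ± 1.03 (adjusted p = 0.963, interval -2.22 to 2.39) and by -1.37 on that slide. Hoxa10, Hoxa11 and Hoxa13 were not well above background on every array of either group and were not tested. Here too the choice drew on the levels of both groups, so nothing is read from the counts.

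Along the cluster, the difference between induced and native organoids ran from -0.41 to 1.26 for Hoxa2 to Hoxa4. From Hoxa7 on it was at least 2.49, the bound for Hoxa13 in iISC against crypt; Hoxa11 there was at least 8.83, and Hoxa13 in iFIPC against FI at least 4.27. All 5 anterior genes compared here, Hoxa2 to Hoxa6, were tested in iISC against crypt and 1 was called, Hoxa5, which was 2.73 ± 0.58 higher (adjusted p = 0.0296 by limma). That call is lost with slide as a term (3.44, adjusted p = 0.257), and also without iISC 2, iISC 3 or any 1 of the crypt arrays. In iFIPC against FI organoids 5 were tested and 0 called, with 3 at an unadjusted p under 0.05 in limma, where 40.7% of all genes tested were. Hoxa5 was 1.56 higher and Hoxa6, the direct neighbour of Hoxa7, 0.71 higher (adjusted p = 0.0753 and 0.0927 by limma). The medians over the anterior genes tested were 0.27 and 0.51, beside 4.38 and 4.55 for the 5 posterior genes with dim ones at their bound. The posterior genes were chosen for such differences, so nothing is read from this contrast. Between the induced groups 0 of 5 anterior genes were called, and 0 had an unadjusted p under 0.05 in limma. In iHep against MEF, Hoxa2 and Hoxa5 were called lower, by -2.28 ± 0.64 and -2.07 ± 0.63 (adjusted p = 0.0113 and 0.017 by limma). With slide as a term neither call held (adjusted p = 0.0702 and 0.189).

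**Figure D2:**
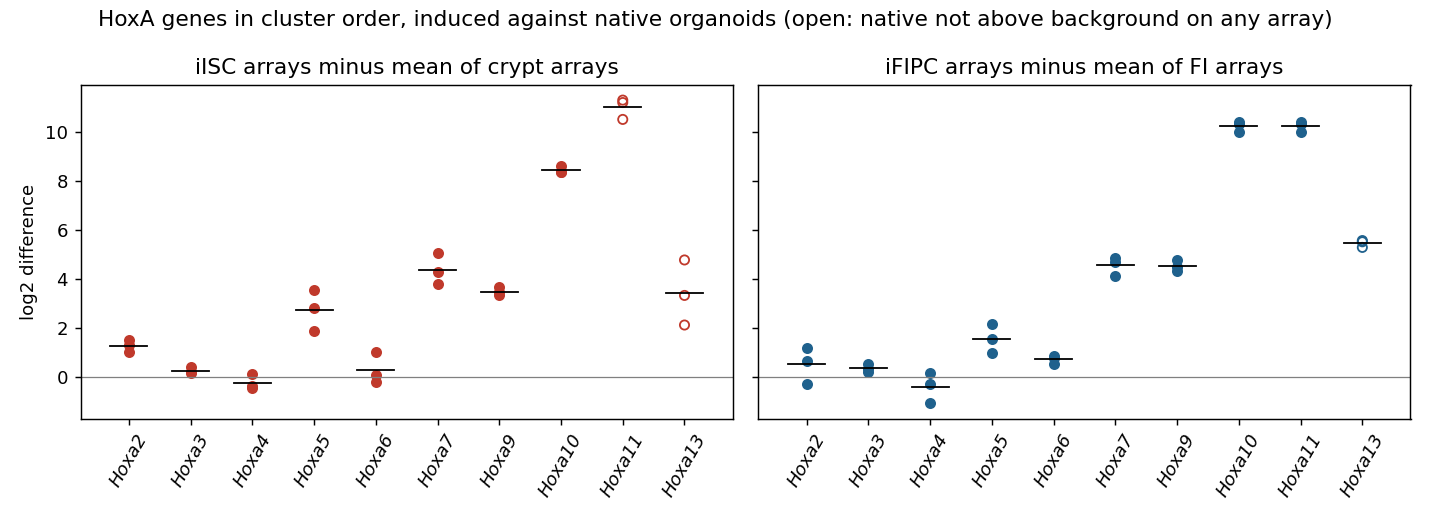
Log2 difference of each iISC array from the mean of crypt arrays (left) and of each iFIPC array from the mean of FI arrays (right) for 10 HoxA genes in cluster order, with a line at the mean of 3 arrays. Open circles mark genes not above background on any native array. Means from Hoxa2 to Hoxa4 lie between -0.41 and 1.26. Hoxa5 lies at 2.73 (left) and 1.56 (right), and Hoxa6 at 0.27 and 0.71. Those from Hoxa7 to Hoxa13, chosen for such differences, lie at 3.40 or above, where the open circles stand for sizes set by dim spots.

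Just beyond Hoxa13 lies Evx1, a homeobox gene of the hindgut and tail bud. It was not well above background in any MEF or iHep array. In induced against native organoids it differed by 0.78 ± 0.42 for iISC and by -0.68 ± 0.43 for iFIPC, neither called (adjusted p = 0.319 and 0.258 by limma). Among the genes next to the cluster and its antisense RNAs, 10 of 14 were on the array by name. Of these, 7 were tested in iISC against crypt and 0 called, with 0 at an unadjusted p under 0.05. In iFIPC against FI 9 were tested and 4 had an unadjusted p under 0.05 in limma, where 40.7% of all genes tested had. Of the 9, 1 was called, the antisense RNA Hoxaas3 from within the cluster, which was at least 3.74-fold higher. Its fitted difference was 3.35 ± 0.37 (adjusted p = 0.000713 by limma), and the call is lost with normexp (0.67, adjusted p = 0.0047) and with slide as a term (3.29, adjusted p = 0.08). In iISC organoids Hoxaas3 was above background on 2 of 3 arrays and on no crypt array.

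In the HoxB cluster, arrays of 1 group differed widely. Relative to the MEF mean, Hoxb7, a trunk gene, read 2.75 on iISC 2 but -9.19 and -8.83 on iISC 1 and 3, where it was not well above background. Hoxb5 and Hoxb8 also read high on iISC 2 and were not above background on the other iISC arrays. On the same 3 arrays Hoxa9 ranged over 0.33 log2 units, Hoxa10 over 0.24, Hoxa11 over 0.79, Hoxa7 over 1.24 and Hoxa13 over 2.66. In iFIPC organoids the 5 genes ranged over 0.28 to 0.71, while Hoxb7 ranged over 7.14. Hoxb3 and Hoxb6 had narrow ranges too, of 1.52 and 0.41 in iISC and 0.47 and 0.36 in iFIPC organoids. The 5 genes were chosen for levels near fibroblasts in these organoids, so nothing is read from the contrast of ranges. No HoxB gene was called in iISC against crypt (3 tested, 1 at an unadjusted p under 0.05) or in iFIPC against FI (7 tested, 0 at that p) in limma.

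**Figure D3:**
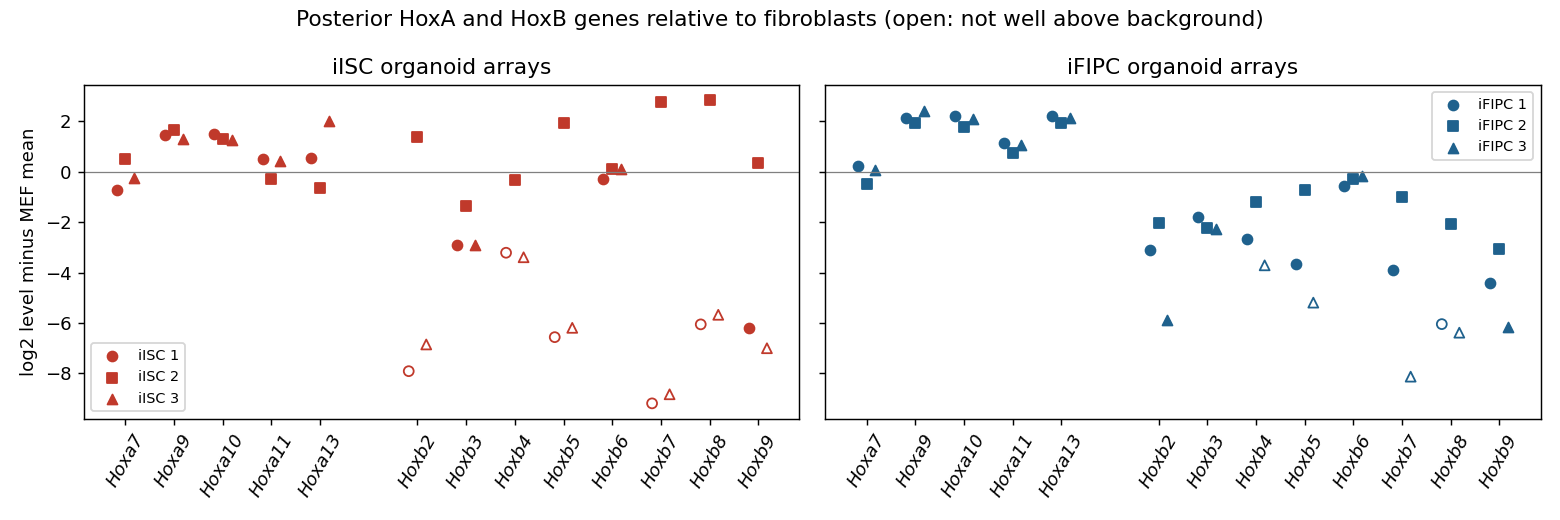
Log2 level minus the MEF mean for the 5 posterior HoxA genes (left of each panel) and 8 HoxB genes on each of the 3 iISC and 3 iFIPC organoid arrays, with a marker shape per array and open markers where the spot was not well above background. The 3 iISC arrays lie within 2.66 of each other for every posterior HoxA gene, while Hoxb7 spans 11.94, Hoxb3 1.52 and Hoxb6 0.41. The size of the Hoxb7 span is set by dim spots on iISC 1 and 3. The posterior HoxA genes were chosen for levels near fibroblasts, so nothing is read from the contrast.

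In iISC against crypt, 1 HoxD gene was tested and called higher, and 0 of 2 HoxC genes were called (0 at an unadjusted p under 0.05 in limma). In iFIPC against FI, 2 of 4 HoxD and 2 of 4 HoxC genes were called, all higher. The 4 HoxD genes and the 2 called HoxC genes were above background on all iFIPC arrays but not on all FI arrays. They were thus tested through iFIPC alone, and Hoxd9 was tested in iISC against crypt through iISC alone. This filter favours genes that are higher in induced organoids, so nothing is read from these counts or their direction. Hoxd9, the paralog of Hoxa9 in the HoxD cluster, was above background on all MEF, iHep and induced arrays and on no native array. It was at least 6.26-fold higher in iISC than crypt and at least 15.2-fold higher in iFIPC than FI (4.27 ± 0.42 and 5.89 ± 0.42, adjusted p = 0.00105 and 5.7e-05 by limma). The iISC call is lost with normexp correction (0.98) and with slide as a term (3.91, adjusted p = 0.0766). Hoxd13, the paralog of Hoxa13, was 4.58 ± 1.26 higher in iFIPC than FI (adjusted p = 0.0264 by limma). Without iFIPC 3 its adjusted p was 0.0836, without FI 2 or FI 3 it was 0.0928 or 0.0712, with slide as a term 0.201, and with all samples in the fit 0.0528. Hoxc6 was at least 17.2-fold higher in iFIPC than FI, and Hoxc9 was 5.09 ± 0.95 higher (adjusted p = 0.00638 by limma); with slide as a term the differences were 6.31 and 3.92 and neither call held (adjusted p = 0.213 and 0.279). In iISC organoids Hoxc9 was not above background on any array, and it was at least 13.8-fold lower than in iFIPC organoids (adjusted p = 0.00408 by limma).

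By Pearson r, the genes whose level over the 17 samples ran most like the 5 posterior genes were Hoxd9 and Tbx15, a T-box factor of limb and trunk mesoderm. Against the mean of the 5 standardised profiles Hoxd9 had a Pearson r of 0.938, Tbx15 of 0.936, Daam1 of 0.898 and Zfhx4 of 0.888, among 14882 genes compared. These are descriptions, since all points share the same arrays and fall into groups. The order did not hold by Spearman's rho, where Hoxd9 (0.735) ranked 51.5 and Tbx15 (0.686) ranked 116, behind Atp7a (0.890, rank 2). Over the 12 organoid arrays the highest by Pearson r were Hoxd9 (0.984), Tbx15 (0.971) and Hoxaas3 (0.969), which ranked 4, 1103 and 26.5 by Spearman's rho. Gene by gene over 17 samples, Hoxd9 and Tbx15 were among the 5 highest for Hoxa7, Hoxa9, Hoxa10 and Hoxa11. For Hoxa13 the highest were Rab11a (0.819) and Cbr2 (0.816), and over the organoids Bmp2 (0.972), Lrrc8a (0.962) and Hoxd9 (0.955). For Hoxa7 over the organoids, Hoxa5 reached 0.907 and Hoxaas3 0.920.

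The partners and regulators of Hox genes were compared from lists of known roles. Hox proteins bind DNA together with TALE homeodomain cofactors. Of 8 cofactors tested, 0 were called in iISC against crypt (3 at an unadjusted p under 0.05) and 0 in iFIPC against FI (0 at that p) by limma, with medians of 0.52 and -0.21. Pbx4 was 1.11 ± 0.29 higher in iISC than in iFIPC organoids (adjusted p = 0.032 by limma), and Pbx3 and Meis3 were lower in crypt than in FI, by -1.01 ± 0.23 and -2.24 ± 0.49 (adjusted p = 0.0162 and 0.0142). The calls of Pbx4, Pbx3 and Meis3 were lost in 8 of 15, 9 of 14 and 5 of 15 alternatives, slide as a term among them. With that term the differences rest on iFIPC 2 for Pbx4 and on crypt 1 for Pbx3 and Meis3, the arrays that share a slide with the other group.

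Polycomb proteins keep Hox genes silent outside their domain, and trithorax proteins keep them active. All 17 Polycomb genes compared were tested, and 0 were called in iISC against crypt (2 at an unadjusted p under 0.05 in limma, median -0.02). In iFIPC against FI 2 of 17 were called, both lower, where 10.8% of all genes tested were called. At an unadjusted p under 0.05 in limma there were 9 of 17, where 40.7% of all genes tested were, and the median was -0.34. The called genes were Cbx2, by -1.14 ± 0.22, and Cbx8, by -1.23 ± 0.24 (adjusted p = 0.00719 and 0.00734 by limma). Both encode chromodomain subunits of Polycomb repressive complex 1, and with slide as a term neither call held (-0.34 and -0.33). In iISC against iFIPC organoids Cbx8 was called higher, by 1.06 ± 0.24, and Phc1 lower, by -1.61 ± 0.33 (adjusted p = 0.0187 and 0.0128 by limma). The Cbx8 call was lost in 7 of 15 alternatives and the Phc1 call in 2 of 15, slide as a term among them. With that term both differences rest on iFIPC 2, the iFIPC array that shares a slide with iISC. In iHep against MEF 3 of 17 were called higher and 2 lower, where 27.8% of all genes tested were called in either direction. Of 12 trithorax and H3K27 demethylase genes, 0 were called in iISC against crypt or in iFIPC against FI. At an unadjusted p under 0.05 in limma there were 2 and 3, where 21.7% and 40.7% of all genes tested were.

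Caudal factors act upstream of posterior Hox genes in the embryo and keep intestinal identity in the adult. Of this list of caudal genes and posterior signals, 0 of 4 tested were called in iISC against crypt (1 at an unadjusted p under 0.05 in limma), and in iFIPC against FI 2 of 6 were called higher, Rarb and Aldh1a2, and 1 lower, Cdx2. Aldh1a2, which makes retinoic acid, differed by 1.76 ± 0.51 (adjusted p = 0.0327 by limma), a call lost with slide as a term and in each of 5 fits that left out 1 array (adjusted p from 0.054 to 0.099). Cdx2 was near crypt in iISC organoids (5.27 against 5.13) and lower in iFIPC than FI by -2.08 ± 0.22 (adjusted p = 0.000494 by limma). Cdx2 is one of the conversion factors, and the probe cannot tell the transgene from the native gene if it lies in their shared part. Cdx2 was also high in iHep (3.05), at least 617-fold above MEF (adjusted p = 9.02e-11 by limma), where no array was above background. Cdx1 did not pass the test in either comparison (-0.24 and -0.02). The retinoic acid receptor gene Rarb, itself induced by retinoic acid, was 2.40 ± 0.70 higher in iFIPC than FI (adjusted p = 0.0337 by limma), a call lost without iFIPC 2 or iFIPC 3 (adjusted p = 0.105 and 0.0704). It was not above background in iISC or crypt organoids. Of 10 genes reported elsewhere as targets of Hoxa10 or Hoxa13, 7 were tested and 0 called in iISC against crypt (2 at an unadjusted p under 0.05 in limma). In iFIPC against FI 8 were tested and 2 were called higher, Bmp2, a BMP ligand, by 1.56 ± 0.16 and Enpp2, autotaxin, at least 29.5-fold; the median over the 8 was -0.42. With slide as a term the differences were 1.97 for Rarb, 1.66 for Bmp2 and 5.76 for Enpp2, and the calls were lost (adjusted p = 0.509, 0.0538 and 0.236 by limma).

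Fibroblast markers were set beside the 5 genes on each array. The levels of the 15 markers were summed on the linear scale before log2 was taken, so the brightest markers weigh most. In MEF this sum was 10.17 to 10.23 and in iHep 6.70 to 7.81. In iISC organoids it was 0.25 to 0.40, against 0.33 to 0.62 in crypt organoids. In iISC organoids Col1a1, Dcn, Lum, Thy1, Pdgfra, Fbn1, Col6a3 and Twist2 were not above background on any array, and Col1a2, Pdgfrb, Postn, Prrx1 and Vim, 5 of the 15, were above it on all 3. Col3a1 (-4.14) and Twist1 (-5.04) were above it on iISC 3 alone. Of the iISC arrays, iISC 3 had the highest mean of the 5 genes and the lowest marker sum, 0.25. Its Hoxa13 was the highest of the iISC arrays, while its Hoxa9 and Hoxa10 were the lowest. In crypt organoids 5 markers were above background on all 3 arrays and 10 on none. Single markers differed between iISC and crypt with no overlap of arrays, Pdgfrb by 2.48 and Prrx1 by -3.06 (adjusted p = 0.0556 and 0.068 by limma), so the sum does not show equal markers. The 5 posterior HoxA genes were on these arrays at a mean of 0.51 to 0.95 log2 units above MEF. In iFIPC organoids the marker sum was 1.44 to 3.37, above the -0.31 to 0.87 of FI organoids, and 8 of 15 markers were above background on all 3 arrays, Col1a1 and Dcn among them. Among the iFIPC arrays, iFIPC 2 had the highest marker sum and the lowest level of each of the 5 genes, and it is the iFIPC array that shares a slide with iISC. iFIPC 1, with the middle marker sum of 2.25, had the highest Hoxa7, Hoxa10, Hoxa11 and Hoxa13, and iFIPC 3, with the lowest sum, the highest Hoxa9. The 6 immune and blood markers summed to 1.74 to 2.91 in iFIPC and -0.50 to 0.17 in FI organoids. The part of these other cell markers in the levels of the 5 genes was not tested. The 5 endothelial markers summed to between -5.36 and -4.40 on all organoid arrays, and the 6 smooth muscle markers to between 3.37 and 4.04.

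**Figure D4:**
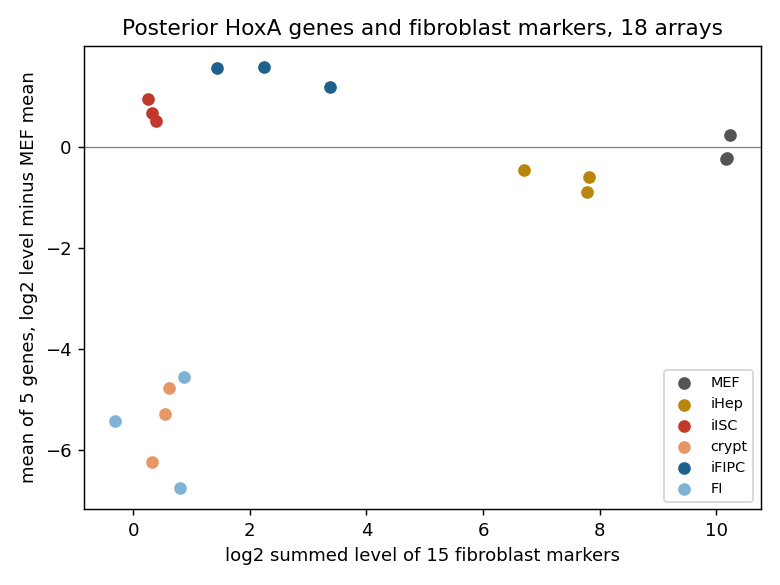
Mean log2 level of the 5 posterior HoxA genes minus the MEF mean (vertical axis) against the log2 summed level of 15 fibroblast markers (horizontal axis), 1 point per array for 18 arrays. The iISC arrays lie at marker sums of 0.25 to 0.40 like the crypt arrays, but between 0.51 and 0.95 on the vertical axis, where crypt arrays lie between -6.24 and -4.77.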

How the data were processed

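Values are Agilent single-colour scanner outputs; per the file headers, the deposited processed signal is a background-subtracted intensity, extracted with Feature Extraction 9.5.1.1 for MEF and iHep arrays and 10.7.1.1 for organoid arrays, while the submitters' processing notes name 9.5.1.1 for all. The authors' deposited value table holds linear intensities with the same median of 59.3 on every array and was used as an alternative. Outlier and control spots were left out, spots of a probe averaged, log2 taken, and each array's 75th percentile subtracted. The 41109 probes used were named through RefSeq accession (24806), symbol (6035) or synonym (1806), and 8462 stayed unnamed. The probe with the highest mean stood for its gene. Genes bright on all arrays (well above background) of 1 or both compared groups were tested with limma 3.58.1 in R 4.3.3 (all 12 organoid arrays in 1 fit; all 17 samples for iHep against MEF), two-sided, with Benjamini-Hochberg adjustment over all genes tested; a call needs an adjusted p under 0.05 and a log2 difference of at least 1. A gene bright in only 1 of the groups passes the filter on dim probes through that group, so the direction of its difference is set in part by the filter. "At least" folds set the dim group at the lowest signal well above background. The fits were tested on simulated data. The members, gene lists and named-gene rule (all 5 members, up to 4 called genes per list and any Hox gene, and the genes of most similar profile) were chosen with earlier results of these data known. Replicate numbers did not pair the samples: of 18 pairs of same-numbered arrays, 5 had a correlation of deviations over 0.1 (range -0.251 to 0.213). Alternatives changed the normalization, background, dim-probe filter, probe choice, samples in the fit, slide and replicate terms, and left out single arrays. Array number and signal over background limit the precision. Some genes of the fixed lists and a probe sequence are not reported here.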

Additional observations from a re-analysis of the deposited data

How the results depend on the processing

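Among the 5 genes and the called genes of the lists, no called difference changed sign under an alternative. For the 5 genes, no call was lost, since none was made; Hoxa13 between the induced organoids gained a call without iISC 3. The number of genes called between iISC and iFIPC organoids (1109) was 301 with slide as a fixed term and 149 within the slide that holds both groups, and ranged from 765 to 1020 when 1 array was left out. Between crypt and FI organoids (1298) it was 853 with normexp, 325 with slide as a term and 178 within the shared slide, and ranged from 762 (without crypt 2) to 1807 without 1 array, with 813 without crypt 3 and 845 without FI 2. Between iISC and crypt organoids (463) it was 308 with normexp and 36 with slide as a term, with a range of 155 (without crypt 2) to 671 without 1 array, and 167 without crypt 3 and 289 without iISC 3. Between iFIPC and FI organoids (1548) it was 124 with slide as a term, with a range of 977 (without FI 2) to 1443. Between iHep and MEF (4007) it was 1789 within the shared slide, with a range of 3513 to 3970. Slide terms leave fewer degrees of freedom, and each shared slide holds 1 array of one of its groups, so the counts within a slide rest on that array. The differences with slide as a term rest on it too, and for organoid groups that share a slide they equal those within it. A call lost with slide as a term therefore does not show an effect of slide. The cause of the normexp counts was not tested. With the replicate block the counts were 938, 1186, 374 and 1420 for the 4 organoid comparisons in this order; it was not run for iHep against MEF, where 2 MEF arrays are averaged. The block changed no call of the 5 genes. Quantile normalization and the authors' table kept all counts within 1.5 times. For iISC against crypt and iFIPC against FI, all alternatives kept the 5 genes higher in induced organoids, with Hoxa13 lowest under normexp (0.92 and 1.73). Signal over background limits Hoxa10, Hoxa11 and Hoxa13 in native organoids, where sizes depend on dim spots.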
